A study of Arabidopsis thaliana with 12 samples.

Results

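Superoxide dismutases (SODs) turn superoxide into hydrogen peroxide and oxygen. This account covers the 7 SOD genes of Arabidopsis thaliana named by locus, CSD1, CSD2, CSD3, FSD1, FSD2, FSD3 and MSD1, together with CCS, the chaperone that loads copper into the Cu/Zn enzymes. They were taken from the count table by locus identifier alone. All 8 were present among the 21543 loci of the table, and all 8 were among the 20741 loci that passed the filter on low counts. The libraries came from seedlings harvested after 2 weeks in 4 groups of 3. These were med8 mutant seedlings on medium with 25 nM methyl viologen (MV), med8 seedlings on control medium, Col-0 wild-type seedlings on medium with 25 nM methyl viologen, and Col-0 seedlings on control medium. MED8 encodes a subunit of Mediator, which connects transcription factors with RNA polymerase II, and the labels name no allele of the mutant. Methyl viologen takes electrons from photosystem I and passes them to oxygen, which forms superoxide in the chloroplast. All groups grew on the same sucrose-containing medium in long days. The labels do not say whether the libraries of a group were separate cultures, and the p-values therefore reflect only how far these libraries differed, which may be technical.

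The enzymes differ in their metal and in their place in the cell. FSD2 and FSD3 are iron enzymes of chloroplast nucleoids and belong to the proteins that associate with the plastid-encoded RNA polymerase, whereas the iron enzyme FSD1 occurs in the cytosol as well as in chloroplasts. CSD1 is the cytosolic, CSD2 the chloroplast and CSD3 the peroxisomal Cu/Zn enzyme, and MSD1 is the manganese enzyme of mitochondria. When copper is short, the transcription factor SPL7, which binds GTAC cores, activates FSD1 and the genes of the microRNA miR398. miR398 in turn targets the transcripts of CSD1, CSD2 and CCS, so that iron can stand in for copper in superoxide removal.

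Each locus was placed on RefSeq's TAIR10.1 assembly. CSD1 (AT1G08830) lies at chr1:2827060-2829315 on the plus strand, CSD2 (AT2G28190) at chr2:12014412-12016569 on the plus strand, and CSD3 (AT5G18100) at chr5:5987187-5988885 on the plus strand. FSD1 (AT4G25100) lies at chr4:12884300-12887011 on the minus strand, FSD2 (AT5G51100) at chr5:20773235-20775739 on the minus strand, and FSD3 (AT5G23310) at chr5:7850444-7852534 on the plus strand. MSD1 (AT3G10920) lies at chr3:3417940-3419892 on the plus strand and CCS (AT1G12520) at chr1:4267074-4268982 on the minus strand. Reads were 75 bases long. No 75-base stretch of the CSD1, CSD2, FSD1, FSD3, MSD1 or CCS transcripts occurred in a transcript of another gene. FSD2 shared 9 of its 1761 such stretches with other loci. CSD3 shared 68 of 675 with NCBP, which overlaps it on the other strand. CSD1 has 211 exonic bases under the opposite-strand gene EMB2411. The strand setting of the counting is not given in the sources used here, so reads in the stretches that CSD3 shares with NCBP cannot be told apart. CSD1 shares no such stretch with an EMB2411 transcript, and reads that reach only in part into that overlap were not examined.

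The miR398 sequences and their best matches in the transcripts are shown because CSD1, CSD2 and CCS are its known targets among the members. RefSeq annotates 3 miR398 loci, whose mature 3p arms share 1 seed (bases 2 to 8, in capitals).
miR398a-3p: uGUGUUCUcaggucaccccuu
miR398b-3p: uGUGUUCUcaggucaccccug
miR398c-3p: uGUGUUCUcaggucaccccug

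Each transcript was searched for the stretch with the most Watson-Crick pairs to miR398c-3p, with 1 unpaired extra base in the site permitted where it gained at least 2 pairs. The sites below are written 5′ to 3′ with paired bases in capitals.
CSD1 site: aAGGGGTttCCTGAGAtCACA
CSD2 site: tgcGGGTGACCTGgGaAACAtA
CCS site: CAttGGGaGACCTGgGAACACt
COX5B-1 site: aAGGtGTGACCTGAGAAtCACA

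The CSD1 site paired 17 of 21 bases, lies in the 5′ UTR and is divided by an intron (chr1:2827177-2827685). The CCS site, in the coding sequence at chr1:4267521-4267542, also paired 17 of 21. As many pairs were found in 33 of 27444 protein-coding genes (0.12%). The CSD2 site, in the coding sequence at chr2:12015572-12015593, paired 16 of 21, which 334 genes (1.22%) reached. COX5B-1 (AT3G15640), which encodes a subunit of cytochrome c oxidase and is a further miR398 target, paired 19 of 21 in its 5′ UTR (chr3:5299204-5299225). The best matches of the other members paired only 12 to 14 bases, and 30.7% of genes or more reached as many.

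The MED8 transcript was lower in both med8 groups (log2 fold change −1.90 ± 0.11 SE on MV and −1.83 ± 0.11 on control medium, edgeR adjusted p = 1.21e-06 and 5.51e-05). The 12 libraries held between 30472194 and 34694751 counts. Of 14 root markers, none was at 0 in any library, and their summed level ran from 1337 to 1425 CPM (the count scaled to library size after TMM normalization) in med8 on MV, 848.6 to 1532 in med8 controls, 1881 to 2701 CPM in Col-0 on MV and 1662 to 2032 CPM in Col-0 controls. PYK10 made up most of this sum, and the other 13 summed to 282.3 to 291.9 CPM in med8 on MV, 137.1 to 235.6 CPM in med8 controls, 219.6 to 289.3 CPM in Col-0 on MV and 256.7 to 262.7 CPM in Col-0 controls. The summed level of 6 green shoot markers ran from 25950 to 33300, 40840 to 52710, 34400 to 36440 and 36230 to 46200 CPM in the same groups. In seedling extracts, fewer cells of a type and less RNA per cell cannot be told apart. Med8 control replicate 3 and Col-0 control replicate 1 stood apart from the other libraries of their groups. Their chi-square per degree of freedom against the others was 34.35 and 37 for med8 control replicate 3 (6.328 between the other pair), and 34.8 and 25.98 for Col-0 control replicate 1 (8.888 between the other pair).

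FSD1 was the member that changed most, and its decrease on MV was far smaller in med8 than in Col-0. FSD1 stood at 653.9, 586.4 and 676.6 CPM in med8 on MV, against 934.8, 1054 and 1002 CPM in med8 controls. In Col-0 it stood at 176.5, 230.4 and 232 CPM on MV, against 940.8, 1144 and 972.7 CPM on control medium. The groups on MV overlapped neither with their controls nor with each other, while the control groups of both genotypes covered the same range. Such groups did not overlap for 53.2% of all genes on MV in med8, 44.2% in Col-0 and 46.3% between genotypes on MV. FSD1 fell 1.56-fold in med8 (log2 fold change −0.64 ± 0.12 SE, edgeR adjusted p = 0.00111) and 4.79-fold in Col-0 (−2.26 ± 0.12, edgeR adjusted p = 5.1e-07). The difference between these responses, the interaction, was 1.62 ± 0.17 on the log2 scale (edgeR adjusted p = 0.000106). On MV the level in med8 was 3.00-fold that in Col-0 (1.59 ± 0.12, edgeR adjusted p = 5.87e-06). On control medium the genotypes differed by −0.03 ± 0.12 (edgeR adjusted p = 0.905), with a 95% interval of −0.29 to 0.23. The group means were 639 ± 46.9 CPM in med8 on MV, 997 ± 59.8 in med8 controls, 213 ± 31.6 in Col-0 on MV and 1019 ± 109 in Col-0 controls (SD, n = 3 each). In order of level, both control groups came first and did not differ beyond their spread, then med8 on MV, then Col-0 on MV.

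**Figure D1:**
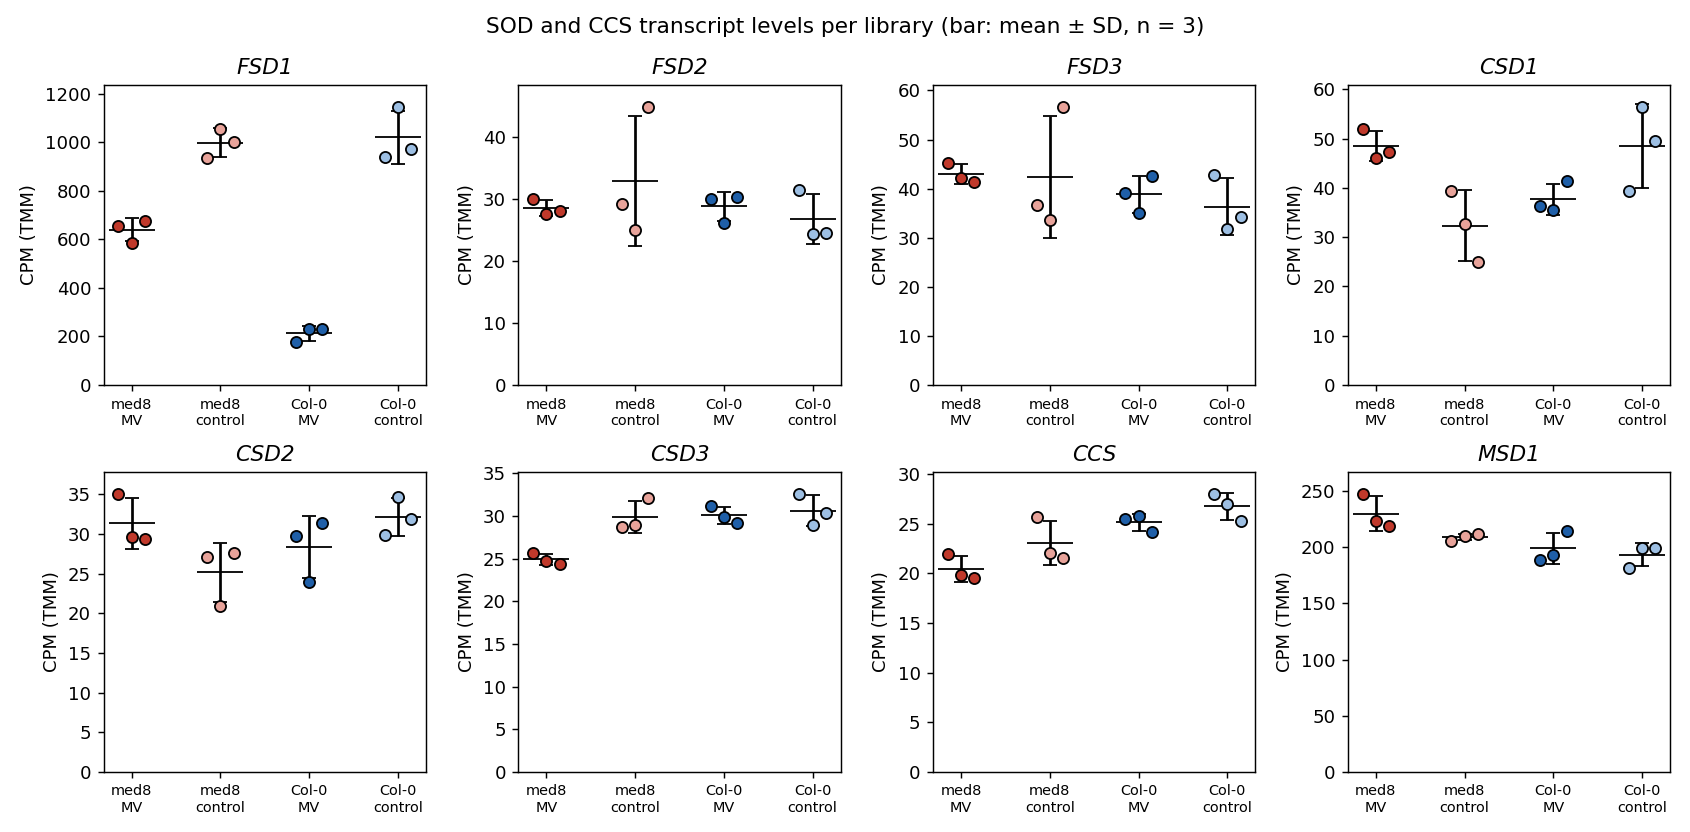
Transcript level (CPM after TMM scaling, linear axis from 0) of each SOD gene and CCS in every library, with points for single libraries and bars for the mean ± SD of 3. FSD1 lies between 586.4 and 676.6 CPM in med8 on MV, above the 176.5 to 232 CPM of Col-0 on MV and below all 6 control libraries.

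Clock genes also differed between the groups. The summed level of the morning genes LHY, CCA1 and RVE8 was 54.56 to 72.62 CPM in med8 on MV, against 28.19 to 36.55 CPM in med8 controls, and 113 to 162.7 CPM in Col-0 on MV, against 18.39 to 23.42 CPM in Col-0 controls. CCA1 was the largest part of it. Between genotypes on MV, 2 of the 3 morning genes were lower in med8, against 12.9% of all genes, and none was higher. CCA1 ran from −1.60 to −1.29 and RVE8 from −0.91 to −0.71 over 20 alternatives, with the call kept in all 20. LHY had −0.25 ± 0.16 in that comparison (edgeR adjusted p = 0.307). In the interaction all 3 were lower, against 7.66% of all genes, and the LHY call was lost in 8 of 19 alternatives. The evening genes TOC1, GI and ELF4 summed to 284.5 to 297.5 CPM in med8 on MV, 299 to 304.9 CPM in med8 controls, 202.5 to 244.9 CPM in Col-0 on MV and 370.9 to 378.5 CPM in Col-0 controls. On control medium, TOC1 was lower in med8 (−0.46 ± 0.08, edgeR adjusted p = 0.00658), as was ELF4 (−0.91 ± 0.08, 0.000257), while GI was not called. GI averaged 167 ± 4.02 CPM in med8 on MV and 176 ± 3.03 CPM in med8 controls. In Col-0, GI averaged 114 ± 12 CPM on MV and 190 ± 6.29 CPM on control medium (SD, n = 3 each). In the interaction all 3 evening genes were higher, against 6.25% of all genes. ELF4 rose on MV in med8 (0.24 ± 0.08, edgeR adjusted p = 0.0253), a call lost in 3 of 20 alternatives. The part of these genes in the FSD1 result was not tested.

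By a rule that ranked all other genes with a symbol, the 3 whose log2 CPM profile was most like FSD1 over the 12 libraries were FER4 (Pearson r = 0.998), LOL1 (r = 0.990) and ABCI8 (r = 0.988). These correlations describe 12 libraries that share their 4 groups, and carry no test. FER4 encodes a ferritin, an iron storage protein, and stood at 19.79, 19.24 and 20.27 CPM in med8 on MV, against 30.63, 36.82 and 36.19 CPM in med8 controls. In Col-0, FER4 stood at 2.52, 3.83 and 4.127 CPM on MV, against 31.64, 41.59 and 33.61 CPM on control medium. ABCI8, also called SUFB, belongs to the machinery that builds iron-sulfur clusters in plastids. It averaged 95.4 ± 8.6 CPM in med8 on MV, 150 ± 11.7 CPM in med8 controls, 35.5 ± 9.23 CPM in Col-0 on MV and 150 ± 15.4 CPM in Col-0 controls (SD, n = 3 each). LOL1, a zinc finger protein of the LSD1 family, averaged 13.3 ± 0.61, 21.9 ± 3.06, 4.79 ± 1.1 and 21 ± 1.21 CPM in those groups, taken in the same order. In all 3, the 4 groups stood in the same relation as in FSD1, with near-equal controls and the lowest level in Col-0 on MV. The choice by likeness over these libraries fixed this in advance.

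**Figure D2:**
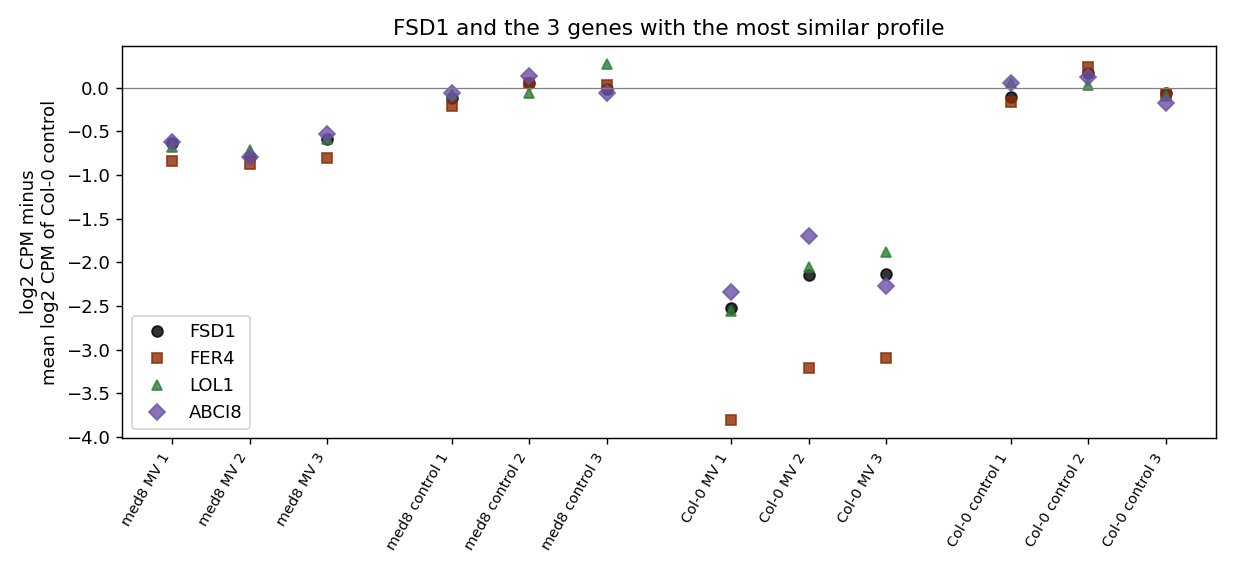
Log2 CPM of FSD1, FER4, LOL1 and ABCI8 in each library, minus the mean log2 CPM of that gene in Col-0 controls. FER4, LOL1 and ABCI8 were chosen by their likeness to FSD1 over these libraries. The med8 libraries on MV lie below the controls and above the Col-0 libraries on MV for all 4 genes, and FER4 reaches lowest.

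FSD1 has 5 annotated transcript starts. In the 250 bases before the start nearest the coding sequence (chr4:12886695), GTAC, which reads the same on both strands, occurred 5 times. As many were found before 0.0416% of 40825 transcript starts of protein-coding genes. This share is counted over single starts, not over the richest start of each gene. The window before the start at position 12886708 also held 5, and that at 12886740 held 4. The outermost start (12887011) had 1, which 33.9% of starts reach, and that at 12886902 had 0. The 30-base stretch with the most cores before the first of these starts is shown with GTAC in capitals (chr4:12886854-12886883, minus strand, TAIR10.1, bases 188 to 159 before the start). This stretch lies downstream of the starts at 12886902 and 12887011, within the annotated gene.
FSD1 upstream stretch: aaatGTACtacaaaaagataatgataGTAC

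Windows of the same length before the CSD1 starts held 2 (as did 7.46% of starts, or more), and the CSD3 window held 1. The CSD2, FSD2, FSD3 and MSD1 windows held 0, and of the 3 CCS starts only the outermost had 1. These counts describe letters in a window and say nothing of occupancy.

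FSD2 and FSD3, the nucleoid enzymes, did not follow FSD1. FSD2 stood at 29.99, 27.51 and 28.06 CPM in med8 on MV, 29.11, 24.91 and 44.78 CPM in med8 controls, 30.05, 26.06 and 30.28 CPM in Col-0 on MV and 31.38, 24.33 and 24.52 CPM in Col-0 controls. FSD3 had 45.28, 42.13 and 41.44 CPM in med8 on MV, 36.69, 33.65 and 56.6 CPM in med8 controls, 39.12, 34.99 and 42.49 CPM in Col-0 on MV and 42.88, 31.8 and 34.28 CPM in Col-0 controls. All groups overlapped, and in both genes the highest control libraries were med8 control replicate 3 and Col-0 control replicate 1, the pair that stood apart. The MV response of FSD2 was −0.21 ± 0.18 in med8 and 0.11 ± 0.18 in Col-0 (edgeR adjusted p = 0.384 and 0.703). That of FSD3 was 0.02 ± 0.17 in med8 and 0.10 ± 0.17 in Col-0 (edgeR adjusted p = 0.931 and 0.719). The 95% intervals ran from −0.60 to 0.19 and −0.29 to 0.50 for FSD2 and from −0.36 to 0.40 and −0.28 to 0.48 for FSD3. With those 2 control libraries left out, FSD3 rose on MV in med8 (0.27, edgeR adjusted p = 0.0154) and in Col-0 (0.24, edgeR adjusted p = 0.0422), and FSD2 rose in Col-0 (0.24, edgeR adjusted p = 0.0467).

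FSD2 and FSD3 varied together across libraries (r = 0.918 over 12 libraries in 4 groups, as a description). The other 11 proteins listed as partners of the plastid RNA polymerase, summed, stood highest in the same control libraries, at 1056 CPM in med8 control replicate 3 and 859.1 CPM in Col-0 control replicate 1, against 712.4 and 771.4 CPM in the other med8 controls and 671.6 and 675.5 CPM in the other Col-0 controls. FSD2 followed this sum with r = 0.761 and FSD3 with r = 0.486. Of the 11 partner genes, 6 fell and none rose on MV in med8 (median −0.45, against 0.03 over all genes, of which 21.8% rose and 21.2% fell), while in Col-0 edgeR called 0 (5 had an unadjusted p under 0.05 and 2 were called by DESeq2; median 0.11, against −0.00 over all genes, of which 28.8% were called). Those with the smallest p in med8 were PTAC7 (−0.72 ± 0.09), PTAC6 (−0.49 ± 0.10) and PTAC14 (−0.52 ± 0.14, edgeR adjusted p at most 0.00932 for these). In the interaction 5 of 11 were lower in med8 and none was higher, against 7.66% of all genes lower and 6.25% higher. Of these 5 calls, that of PTAC7 (−0.48 ± 0.13, edgeR adjusted p = 0.0308) was lost in 7 of 19 alternatives, with adjusted p up to 0.0858, and that of FLN2 (−1.04 ± 0.26, edgeR adjusted p = 0.0235) in 5 of 19, with adjusted p up to 0.0634. That of FLN1 (−0.97 ± 0.22, edgeR adjusted p = 0.0133) held in all 19, and those of MURE and PTAC10 (edgeR adjusted p = 0.0448 and 0.0486) were not recomputed.

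CSD1, the cytosolic Cu/Zn enzyme, rose on MV in med8, and this response differed from that in Col-0. It stood at 51.98, 46.15 and 47.34 CPM in med8 on MV, against 39.34, 32.74 and 24.86 CPM in med8 controls. In Col-0 it stood at 36.22, 35.43 and 41.3 CPM on MV, against 39.43, 56.36 and 49.43 CPM on control medium. The med8 groups did not overlap, as for 53.2% of all genes, while the Col-0 groups did, through Col-0 control replicate 1. CSD1 rose in med8 (0.59 ± 0.16, edgeR adjusted p = 0.0109) and had −0.36 ± 0.16 in Col-0 (edgeR adjusted p = 0.108, 95% interval −0.71 to −0.02). The interaction was 0.95 ± 0.22 (edgeR adjusted p = 0.0156), and it kept its direction and its call in all 19 alternatives tried, with values from 0.78 to 1.11. CSD1 fell in Col-0 without both libraries that stood apart (−0.49, edgeR adjusted p = 0.00173), without Col-0 control replicate 1 (−0.49, 0.0387) and without med8 control replicate 3 (−0.36, edgeR adjusted p = 0.0265). Between genotypes, CSD1 had 0.36 ± 0.16 on MV (edgeR adjusted p = 0.117) and −0.58 ± 0.16 on control medium (edgeR adjusted p = 0.0542). On MV it was called with only the groups compared (0.37, edgeR adjusted p = 0.00492), without both libraries that stood apart (0.37, 0.00526) and without med8 control replicate 3 (0.37, 0.0298). On control medium it was called without both libraries (−0.54, edgeR adjusted p = 0.0103), without med8 control replicate 1 (−0.75, 0.0284) or Col-0 control replicate 1 (−0.71, 0.0208), with upper-quartile scaling (−0.59, 0.0432) and in DESeq2 (−0.57, DESeq2 adjusted p = 0.0116). EMB2411, whose gene overlaps CSD1 on the other strand, was at 9.17 to 11.5 CPM in group mean and had an interaction of 0.16 ± 0.13 (edgeR adjusted p = 0.47). Over the 12 libraries CSD1 had r = −0.791 with the summed partners of the plastid RNA polymerase and r = −0.684 with the summed shoot markers, whose part in the result was not tested.

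CSD2, the chloroplast Cu/Zn enzyme, had the same signs as CSD1 at smaller sizes. It stood at 35.05, 29.56 and 29.37 CPM in med8 on MV, against 27.12, 20.86 and 27.54 CPM in med8 controls. The Col-0 libraries had 29.69, 23.97 and 31.36 CPM on MV, against 29.92, 34.61 and 31.91 CPM on control medium. The med8 groups did not overlap, as for 53.2% of all genes, and the Col-0 groups did. None of its comparisons passed in the edgeR fit of all 12 libraries with TMM scaling. The response was 0.32 ± 0.13 in med8 (edgeR adjusted p = 0.0652) and −0.18 ± 0.13 in Col-0 (edgeR adjusted p = 0.313). The interaction was 0.50 ± 0.18 (edgeR adjusted p = 0.0938, 95% interval 0.10 to 0.89). Between genotypes, CSD2 had 0.14 ± 0.13 on MV (edgeR adjusted p = 0.457) and −0.35 ± 0.13 on control medium (edgeR adjusted p = 0.132). The genotypes did not overlap on control medium, as for 23.3% of all genes, but did on MV. The med8 response passed without med8 control replicate 3 (0.37, edgeR adjusted p = 0.0364), without replicate 2 of Col-0 on MV (0.32, 0.0432) and with upper-quartile scaling (0.34, 0.0497). Without both libraries that stood apart, the med8 response (0.37, edgeR adjusted p = 0.0379) and the interaction (0.60, 0.0448) passed. CSD1 and CSD2 correlated with r = 0.683 over the 12 libraries, and neither followed FSD1 (r = 0.117 and 0.027).

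CSD3, the peroxisomal enzyme, was lower in med8 on MV than in every other group. It had 25.66, 24.7 and 24.41 CPM there, against 28.74, 28.93 and 32.06 CPM in med8 controls and 31.18, 29.83 and 29.23 CPM in Col-0 on MV. Col-0 controls stood at 32.59, 28.95 and 30.3 CPM, of which 28.95 and 30.3 lay in the range of those groups and 32.59 above it. CSD3 fell on MV in med8 (−0.26 ± 0.07, edgeR adjusted p = 0.00695) and was lower in med8 than in Col-0 on MV (−0.27 ± 0.07, edgeR adjusted p = 0.0108). Its response in Col-0 was −0.03 ± 0.07 (edgeR adjusted p = 0.808), and the interaction, −0.24 ± 0.09, did not pass (edgeR adjusted p = 0.119), so a difference between the responses was not shown. NCBP, the gene that overlaps it, had a response of 0.08 ± 0.07 in med8 (edgeR adjusted p = 0.382). CSD3 had r = 0.828 with the summed shoot markers and r = 0.835 with the summed polymerase partners, both lowest in med8 on MV. Their part in the result was not tested.

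CCS, the copper chaperone, had 21.96, 19.84 and 19.54 CPM in med8 on MV, against 25.49, 25.77 and 24.13 CPM in Col-0 on MV. These groups did not overlap, as for 46.3% of all genes. CCS was lower in med8 on MV (−0.30 ± 0.08, edgeR adjusted p = 0.0181). On control medium CCS stood at 25.64, 22.01 and 21.55 CPM in med8 and at 28, 26.95 and 25.31 CPM in Col-0, which overlapped (−0.21 ± 0.08, edgeR adjusted p = 0.142). The call on MV was lost without med8 MV replicate 2 (−0.28, edgeR adjusted p = 0.0737) or 3 (−0.27, 0.0694) and without Col-0 MV replicate 1 (−0.29, 0.0605) or 2 (−0.28, 0.0595). The responses to MV were −0.17 ± 0.08 in med8 and −0.09 ± 0.08 in Col-0 (edgeR adjusted p = 0.0986 and 0.428), and that in med8 passed without med8 control replicate 3 (−0.23, edgeR adjusted p = 0.0398) and without both libraries that stood apart (−0.23, 0.0327). The interaction was −0.08 ± 0.11 (edgeR adjusted p = 0.703), so a difference between the responses was not shown. CCS and CSD1 had r = 0.066 over the 12 libraries, and the part of miR398 in their levels was not tested.

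MSD1, the mitochondrial enzyme, stood at 247.6, 223.9 and 218.9 CPM in med8 on MV, 206, 210.4 and 211.6 CPM in med8 controls, 189.1, 193.2 and 214.9 CPM in Col-0 on MV and 181.6, 199.2 and 199.6 CPM in Col-0 controls. The med8 libraries on MV were above all 9 others. No comparison passed in the edgeR fit of all 12 libraries with TMM scaling. The largest difference was that between genotypes on MV (0.21 ± 0.07, edgeR adjusted p = 0.0627, 95% interval 0.05 to 0.37). It passed in DESeq2 (0.20, DESeq2 adjusted p = 0.0273), with upper-quartile scaling (0.24, edgeR adjusted p = 0.0277), without both libraries that stood apart (0.21, 0.0266) and without Col-0 MV replicate 3 (0.27, 0.0316) or med8 control replicate 3 (0.21, 0.0435).

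**Figure D3:**
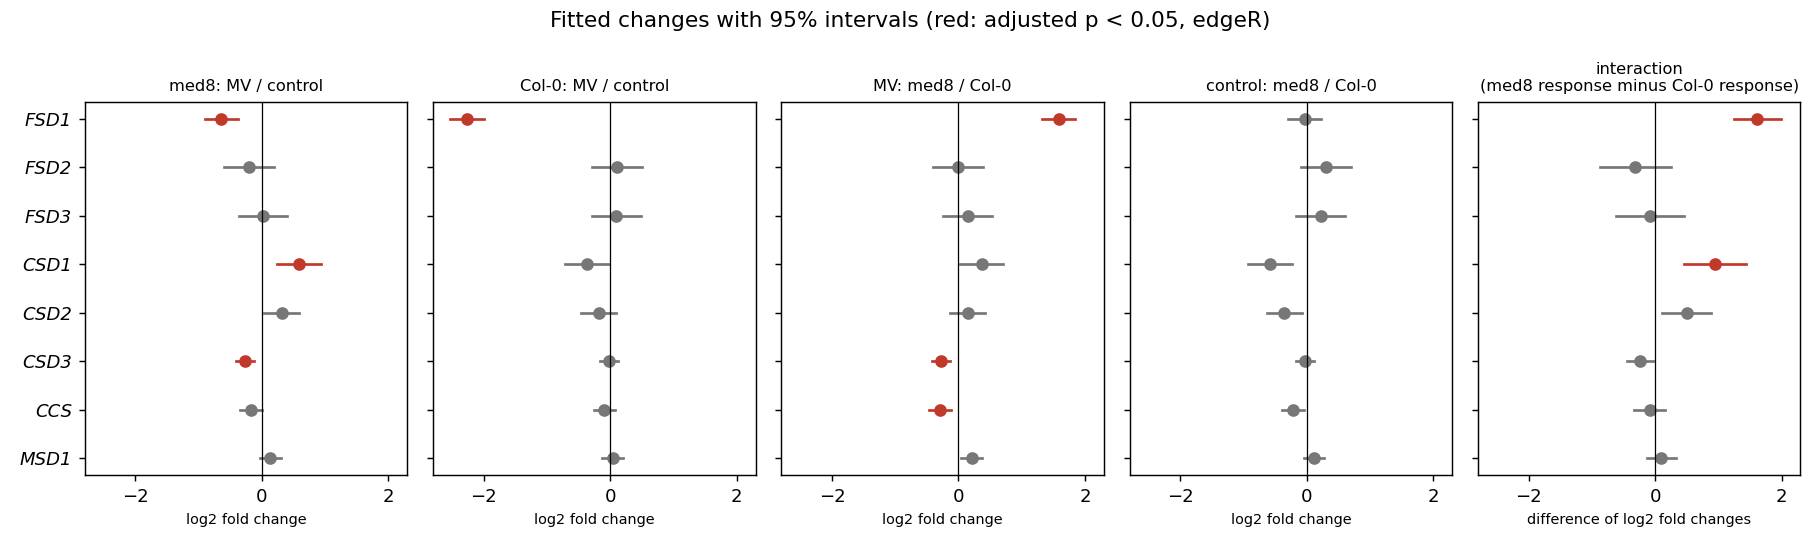
Fitted log2 fold changes (difference of log2 fold changes in the last panel) of the 8 genes with 95% intervals from edgeR. Red marks Benjamini-Hochberg adjusted p under 0.05, which FSD1 reached in 4 of 5 panels and CSD1 in 2.

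Over the 8 genes, 1 rose and 2 fell on MV in med8, where 43.1% of all genes were called (21.8% higher and 21.2% lower). In Col-0 none rose and 1 fell, where 28.8% of all genes were called (15.4% higher and 13.4% lower). On MV, 1 was higher and 2 were lower in med8 than in Col-0, against 23.7% of all genes called (10.8% higher and 12.9% lower), and DESeq2 called 4. In the interaction 2 were higher and none was lower, against 13.9% of all genes (6.25% higher and 7.66% lower). On control medium edgeR called 0 of 8 between genotypes, 3 had an unadjusted p under 0.05 and DESeq2 called 1 (CSD1), while edgeR called 5.79% of all genes (2.81% higher and 2.98% lower). The groups did not overlap for 5 of the 8 on MV in med8, 1 in Col-0, 5 between genotypes on MV and 3 on control medium. Over all genes the corresponding shares were 53.2%, 44.2%, 46.3% and 23.3%. These comparisons share groups with each other and are not independent. The median log2 change of the 8 was −0.08 in med8 and −0.06 in Col-0 on MV, against 0.03 and −0.00 over all genes tested. The called members were thus 37.5% of the 8 in med8 and 12.5% in Col-0, neither above the share of all genes.

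Per length, FSD1 and MSD1 made up most SOD transcripts. CPM per kb of annotated exon averaged 642 ± 38.5 for FSD1 and 194 ± 2.73 for MSD1 in med8 controls and 656 ± 70.4 and 179 ± 9.5 in Col-0 controls (SD, n = 3), and no other SOD gene exceeded 64.56 in any library. FSD1 held 50.6%, 50.38% and 54.22% of the summed level of the 7 SOD genes in med8 on MV, against 63.41%, 67.08% and 63.76% in med8 controls. In Col-0 it held 25.25%, 31.26% and 28.88% on MV, against 64.11%, 67.11% and 63.84% on control medium. MSD1 was the largest share in Col-0 on MV, at 38.3 ± 0.61%, against 17.8 ± 1.01% in Col-0 controls. The summed level of the 7 genes was 795 ± 42 CPM per kb in med8 on MV, 991 ± 36.1 in med8 controls, 481 ± 34 in Col-0 on MV and 1008 ± 79.8 in Col-0 controls. Without FSD1, the other 6 summed to 384 ± 23.9, 349 ± 16.9, 344 ± 21.7 and 352 ± 11.3 CPM per kb in the same groups. These sums depend on the annotated lengths and count transcripts, not enzyme.

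**Figure D4:**
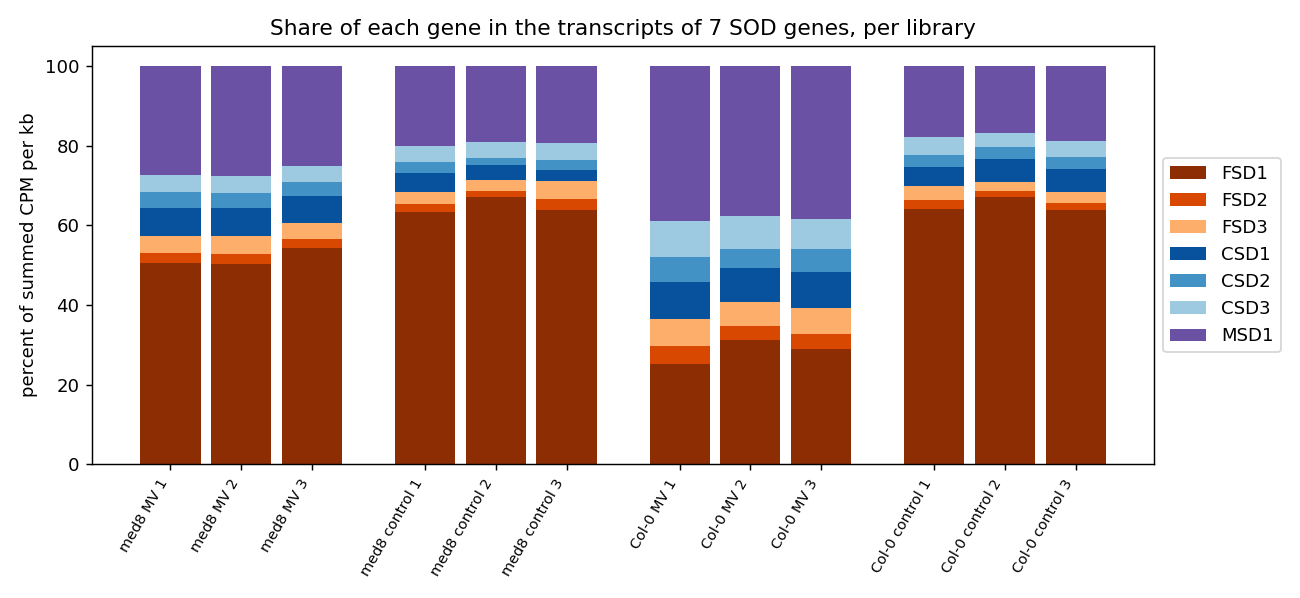
Share of each SOD gene in the summed CPM per kb of the 7 SOD genes, per library (stacked bars, percent). FSD1 takes 50.38% to 54.22% in med8 on MV and 25.25% to 31.26% in Col-0 on MV, against 63.41% to 67.11% in the 6 control libraries.

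Genes around copper supply changed in both directions. The precursor of miR398c was the only miR398 locus whose counts were analysed here, and it was added after its values were seen. MIR398c had 0.751, 0.492 and 0.47 CPM in med8 on MV, against 0.344, 0.236 and 0.356 CPM in med8 controls, and 0.704, 0.928 and 0.626 CPM in Col-0 on MV, against 0.358, 0.291 and 0.253 CPM in Col-0 controls. Neither pair overlapped, as for 53.2% of all genes in med8 and 44.2% in Col-0, at 7 to 32 counts per library. It rose in med8 (0.86 ± 0.31, edgeR adjusted p = 0.0404), and in Col-0 by 1.31 ± 0.30 (edgeR adjusted p = 0.00618), and the interaction was −0.45 ± 0.44 (edgeR adjusted p = 0.568). The med8 call was lost in 11 of 19 alternatives, among them without med8 MV replicate 1 (0.62, edgeR adjusted p = 0.168) or 2 (0.95, 0.0538), med8 control replicate 1 (0.94, 0.069), 2 (0.69, 0.142) or 3 (0.95, 0.0529), Col-0 MV replicate 1 (0.86, 0.0535) and Col-0 control replicate 2 (0.85, 0.0568). These are counts of a precursor in mRNA libraries and do not measure mature miR398. The 250 bases before the annotated MIR398c hairpin hold 3 GTAC cores, a number that 1.44% of gene promoters of that length reach. The windows before the MIR398b and MIR398a hairpins hold 5 (reached by 0.0437%) and 0.

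SPL7 stood at 33.3 ± 1.07 CPM in med8 on MV, 30.7 ± 0.36 CPM in med8 controls, 35.2 ± 1.37 CPM in Col-0 on MV and 29.7 ± 1.32 CPM in Col-0 controls (SD, n = 3 each). Its response was 0.12 ± 0.06 in med8 (edgeR adjusted p = 0.109), while in Col-0 it rose by 0.25 ± 0.06 (edgeR adjusted p = 0.0064). Among 20 genes of copper uptake and delivery tested, 7 rose and 6 fell in med8 (median 0.16), where 43.1% of all genes were called with a median of 0.03. In Col-0 7 rose and 4 fell (median 0.18), where 28.8% of all genes were called with a median of −0.00. In med8 the smallest p-values were those of YSL2, a metal-nicotianamine transporter (0.78 ± 0.08), PAA2, the copper pump of the thylakoid (−0.96 ± 0.10), and COX17, a copper carrier of mitochondria (1.21 ± 0.15; edgeR adjusted p at most 8.5e-05). In Col-0 they were those of FRO3, a metal reductase (2.11 ± 0.12), YSL2 (1.28 ± 0.08) and the copper chaperone CCH (0.64 ± 0.08; edgeR adjusted p at most 0.00017). FRO3 averaged 102 ± 12.4 CPM in med8 on MV and 105 ± 8.48 CPM in med8 controls, against 342 ± 32 and 79.1 ± 9.4 CPM in the corresponding Col-0 groups, with an interaction of −2.15 ± 0.16 (edgeR adjusted p = 1.94e-05).

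The other targets of the copper microRNAs, 8 laccase, plantacyanin and oxidase genes, had 1 rising and 3 falling in med8 and 1 rising and 3 falling in Col-0, where 43.1% and 28.8% of all genes were called. The gene that rose in med8 was ARPN (0.58 ± 0.19, edgeR adjusted p = 0.0248), whose call was lost in 6 of 20 alternatives, with adjusted p up to 0.0935. In the interaction only ARPN, which encodes plantacyanin, passed (1.27 ± 0.26, edgeR adjusted p = 0.00697). ARPN averaged 2.74 ± 0.16 CPM in med8 on MV and 2.72 ± 0.36 CPM in Col-0 on MV. In controls it averaged 1.83 ± 0.44 CPM in med8 and 4.365 ± 0.61 CPM in Col-0 (SD, n = 3 each). On control medium it was called lower in med8 (−1.47 to −1.15 over 20 alternatives), a call lost in 1 of them. COX5B-1 had a response of 0.29 ± 0.12 in med8 (edgeR adjusted p = 0.0585) and −0.05 ± 0.12 in Col-0 (edgeR adjusted p = 0.798).

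Among factors that assemble SODs, MTM1, whose yeast homologue is needed for manganese loading of the mitochondrial enzyme, rose in both genotypes. It averaged 13.9 ± 1.87 CPM in med8 on MV, against 4.88 ± 0.4 CPM in med8 controls (1.51 ± 0.12, edgeR adjusted p = 3.71e-06), and 11 ± 0.27 CPM in Col-0 on MV, against 4.69 ± 0.49 CPM in Col-0 controls (1.23 ± 0.12, edgeR adjusted p = 2.3e-05). Its homologue MTM2 had −0.18 ± 0.08 in med8 and −0.14 ± 0.08 in Col-0 (adjusted p from edgeR 0.107 and 0.226). CPN20, the plastid co-chaperonin that activates FSD1, stood at 409 ± 42.2 CPM in med8 on MV, against 567 ± 138 CPM in med8 controls, of which med8 control replicate 3 had 723.6 CPM. CPN20 fell in med8 (−0.47 ± 0.15, edgeR adjusted p = 0.0264). The call was lost without med8 control replicate 3 (−0.27, edgeR adjusted p = 0.0654) and without med8 MV replicate 2 (−0.45, 0.0787) or 3 (−0.41, 0.0928), and with only the groups compared (−0.48, 0.0603). In Col-0, CPN20 had 0.09 ± 0.15 (edgeR adjusted p = 0.687). MSD2, a further manganese SOD gene, was near the detection limit, at 0.549, 0.628 and 0.391 CPM in med8 on MV, against 0.136, 0.0871 and 0.0285 CPM in Col-0 on MV (2.58 ± 0.68, edgeR adjusted p = 0.0178). The MSD2 call was lost without med8 MV replicate 2 (2.42, edgeR adjusted p = 0.061) and without Col-0 MV replicate 2 (2.60, 0.0534) or 3 (2.18, 0.0614). MSD2 had 0.654, 0.743 and 0.1425 CPM in med8 controls and 0.423, 0.097 and 0.221 CPM in Col-0 controls. Its response to MV was 0.01 ± 0.52 in med8 and −1.51 ± 0.78 in Col-0 (edgeR adjusted p = 0.985 and 0.176).

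Hydrogen peroxide, the product of the SOD reaction, is removed by catalases, ascorbate peroxidases and peroxiredoxins. Of 14 such genes tested, 2 rose and 8 fell on MV in med8 (median −0.44), where 21.8% of all genes rose and 21.2% fell. In Col-0 1 rose and 9 fell (median −0.50), where 15.4% of all genes rose and 13.4% fell. In the interaction 3 were higher and 1 was lower in med8, against 13.9% of all genes called. SAPX, the stromal ascorbate peroxidase, averaged 81.1 ± 2.72 CPM in med8 on MV and 64 ± 7.88 CPM in med8 controls, against 32.2 ± 4.17 and 76.3 ± 10.5 CPM in the corresponding Col-0 groups (interaction 1.59 ± 0.17, edgeR adjusted p = 0.000135). The catalase gene CAT3 averaged 3513 ± 231 CPM in med8 on MV and 2763 ± 265 CPM in med8 controls, against 1216 ± 325 and 4575 ± 1110 CPM in the corresponding Col-0 groups (interaction 2.26 ± 0.30, edgeR adjusted p = 0.00054). CAT2, the main catalase of leaves, averaged 530 ± 76.6 CPM in med8 on MV and 581 ± 46.2 CPM in med8 controls, against 819 ± 79.9 CPM in Col-0 on MV and 396 ± 43.8 CPM in Col-0 controls (interaction −1.18 ± 0.17, edgeR adjusted p = 0.001).

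**Figure D5:**
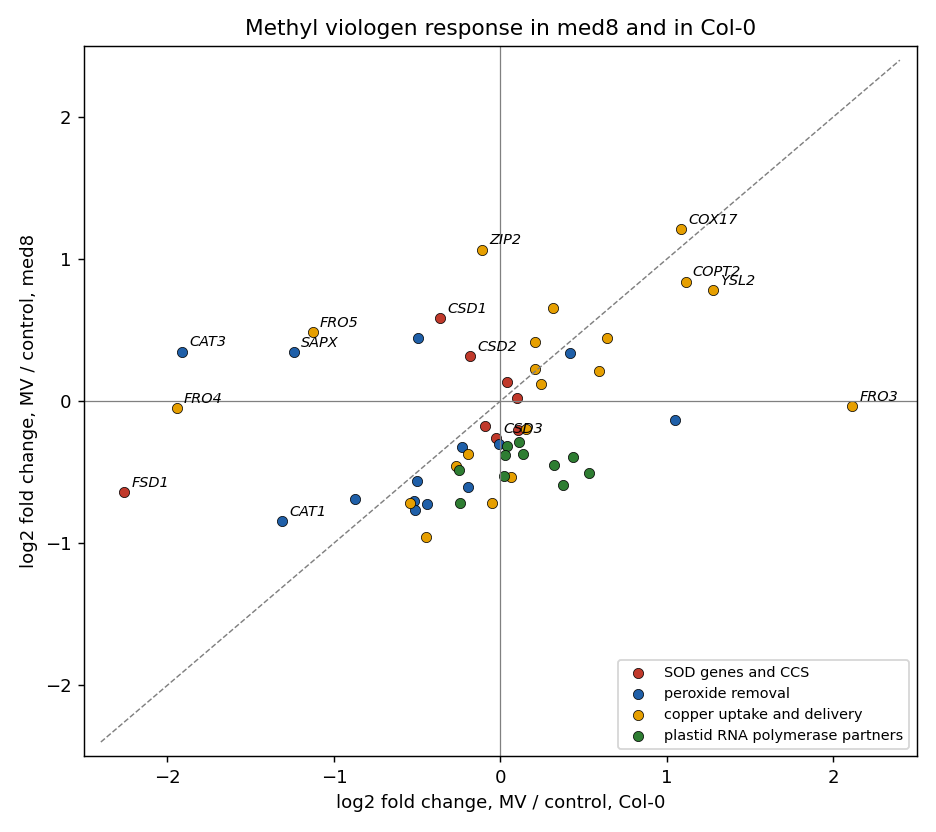
Log2 fold change on MV in med8 (vertical) against Col-0 (horizontal) for the SOD genes and CCS, and for genes of peroxide removal, copper supply and the plastid RNA polymerase; the dashed line marks equal responses. FSD1 lies at −0.64 in med8 and −2.26 in Col-0, and CSD1 at 0.59 and −0.36.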

How the data were processed

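Per the submitters' processing notes, reads were trimmed with Trim Galore 0.3.3, aligned with TopHat2 2.1.0 to TAIR10 and counted with featureCounts of Subread 1.4.6. Per the labels, libraries were TruSeq Stranded mRNA, sequenced as 75-base single-end reads. The deposited values are raw counts per locus, already without rare loci (the third highest count was at least 5 at every locus). Columns were matched to samples by title. The 8 members and all lists were chosen with earlier results of these data known.

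The 12 libraries entered 1 quasi-likelihood fit (edgeR 4.0.16, R 4.3.3; robust, a mean for each group, TMM factors). Its filterByExpr step asked for a count of 10 and a total of 15, and left out 802 loci. The common biological coefficient of variation was 12.7%. Benjamini-Hochberg adjustment ran over all 20741 loci, with 0.05 as the threshold; intervals are 95%. The method was tested on simulated data, with the outcome not reported here. Alternatives were other scalings and filters, DESeq2 1.42.0, a block for the replicate number, each comparison from its own groups, and fits with libraries left out. Symbols, lengths (union of exons) and sequences came from RefSeq TAIR10.1, which matched 21519 loci; the table holds no coordinates. Named genes were the members, MED8, SPL7, the 3 genes most like each member and the 3 smallest p-values of a list in the comparison described; COX5B-1, MTM2, CPN20, MSD2, MIR398c, EMB2411 and NCBP were named besides, after their values were seen. COPT3 and APX2 were listed but not analysed here.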

Additional observations from a re-analysis of the deposited data

Results flagged for a closer look

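The methyl viologen (MV) response differed between genotypes at 2 of the 8 genes by a test of the difference itself. FSD1 had an interaction of 1.62 on the log2 scale, falling in all med8 and Col-0 libraries on MV relative to their controls but less in med8, and CSD1 had 0.95, rising in med8. The fit calls 13.9% of all genes in this test. Without both libraries that stood apart, CSD2 passed as well (0.60, edgeR adjusted p = 0.0448). For FSD1 the interaction ran from 1.50 to 1.68 and for CSD1 from 0.78 to 1.11 over 19 alternatives, all past the threshold. The summed levels of clock genes, shoot markers and root markers also varied between the groups, and their part in these differences was not tested.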

How the results depend on the processing

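Of 792 recomputed member values, 739 kept their direction and side of the threshold, 4 lost the call (all CCS between genotypes on MV), 26 gained one and 23 changed sign, none of them a called value. Over all genes followed, called genes of the lists included, 166 of 2789 recomputed values lost the call. The cause was not tested.

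Leaving out single libraries, values that changed sign had these ranges. On MV in med8, FSD3 ran from −0.119 to 0.275 (and had −0.00188 with RLE scaling and −0.00204 in DESeq2), and FSD2 from −0.373 to 0.065 (0.0649 without both libraries that stood apart). On MV in Col-0, CSD3 ran from −0.0727 to 0.022 (0.0248 without both) and MSD1 from −0.0172 to 0.0769 (−3.06e-05 without both). Between genotypes, FSD2 on MV ran from −0.0816 to 0.0232 (0.01996 with upper-quartile scaling), and on control medium CSD3 ran from −0.0764 to 0.0133, FSD1 from −0.0861 to 0.0644 and FSD3 from −0.0367 to 0.361. The interaction of FSD3 ran from −0.217 to 0.181 (0.0381 without both).

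Without single libraries, members called ran from 3 to 5 on MV in med8 (5 without med8 control replicate 3), 1 to 2 in Col-0, 2 to 5 between genotypes on MV (5 without med8 control replicate 3) and 0 to 1 on control medium. Without both libraries that stood apart they were 6, 4, 5 and 1, and 3 in the interaction, against 2 as reported (CSD2 was gained). DESeq2 and upper-quartile scaling each called 1 (CSD1) on control medium. Genes called there, 1200 as reported, were 2005 in DESeq2, 143 with only the groups compared, 1848 without both libraries, and 402 to 1625 without single libraries (402 without Col-0 control replicate 3, 446 without replicate 2, 631 without med8 control replicate 2). Without single libraries, genes called ran from 3211 to 6390 between genotypes on MV and from 1874 to 3332 in the interaction, both lowest without med8 MV replicate 2 (1912 in the interaction without Col-0 MV replicate 1).

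No label says what a replicate number marks, and same-numbered libraries were not alike throughout. Correlations of same-numbered deviations ran from −0.379 to 0.459, 7 of 18 were over 0.1, and the best-correlated library had the same number in 15 of 36 cases. Those of replicate 2 were all positive, from 0.068 to 0.459, and whether same-numbered libraries shared their handling was not tested. With the replicate block, members called were 3 on MV in med8, 1 in Col-0, 3 and 0 between genotypes on MV and control medium and 2 in the interaction, and genes called were 8682, 5639, 4571, 1002 and 2622. MIR398c and MSD2 rest on few counts.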

Other observations

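Profiles most like the other members over the 12 libraries are given as descriptions. For CSD1 they were AGG2 (r = 0.932), ZF1 (0.900) and the manganese and iron transporter gene NRAMP1 (0.886), which averaged 61.3 CPM in med8 on MV, 34.3 CPM in med8 controls, 40.9 CPM in Col-0 on MV and 48.2 CPM in Col-0 controls. NRAMP1 had an interaction of 1.07 ± 0.16 (edgeR adjusted p = 0.00119). For CSD2 they were CSLA11 (0.891), HSP101 (0.856) and UBC23 (0.856). For CSD3 they were PP2C52 (0.977), EMB2453 (0.975) and ATP-PRT1 (0.972). FSD2 was most like the plastid import channel gene TOC75-III (0.962), the chaperonin gene CPN60A (0.933) and MIND (0.922), and FSD3 was most like TOPII (0.958), CSLD5 (0.957) and PS1 (0.956). MSD1 was most like PBC1 (0.964), UBL5 (0.950) and RPA1A (0.945), and CCS was most like RXF12 (0.931), MLP329 (0.913) and MLP328 (0.912).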
